A study of Mus musculus with 2 samples.

Results

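The CDK inhibitor genes Cdkn1a, Cdkn1b, Cdkn1c, Cdkn2c and Cdkn2d were followed through 4 reporter gates of sorted mouse bone marrow cells. They are 5 of 53273 genes that could be read, and all 5 were read. The deposited gene labels were displaced by 1 gene, so each gene was read from the row that carries the label of the gene just before it in the GENCODE M21 order. Under that reading Cdkn2d stood at 289 CPM in mAG+ cells, against 107 to 151 CPM in the other 3 gates. CPM are counts summed over a gate and scaled to a gate total of 1000000. Cdkn2c lay almost entirely in the gates of 1 library, though in mKO2neg 2 cells held 50 of its 58 counts. Cdkn1c was the one inhibitor of lower level in mAG+ cells than in every other gate.

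The cells came from bone marrow of C57BL/6 mice aged 8 weeks that carried the Fucci reporter, and the study concerns quiescent blood stem cells. In this reporter the green protein mAG, fused to part of geminin, accumulates in S, G2 and M phase, and the orange protein mKO2, fused to part of Cdt1, accumulates in G0 and G1. Each gate held 48 cells, with mAG+ and mKO2neg cells in one library and mKO2low and mKO2high cells in the other. The RNA was amplified by a modified Smart-seq2 protocol that keeps the 3' ends of transcripts, so values are compared between gates and not between genes. The sources used here name no animals or cultures behind a gate and no stem cell sort. Each gate is therefore 1 sample, no value below has a replicate check, and no test was run.

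CDK inhibitors are small proteins that hold back cyclin-dependent kinases, the enzymes that drive a cell from one phase of its cycle into the next. The Cip/Kip members Cdkn1a, Cdkn1b and Cdkn1c bind cyclin-kinase complexes of several kinds, whereas the INK4 members Cdkn2c and Cdkn2d bind Cdk4 and Cdk6 alone and keep D cyclins off them. In mouse blood stem cells Cdkn1c and Cdkn1b are known for keeping cells out of cycle, and Cdkn1a is the classic target of the tumour suppressor Trp53. Much of the control of these inhibitors acts on the protein, through ubiquitin ligases such as the one built on Skp2, and RNA counts do not measure it.

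The promoters of 3 inhibitors are shown because Cdkn1b and Cdkn2d were both more than 2-fold higher in mAG+ than in mKO2neg cells and Cdkn1a stood apart in the other library. Each runs from 250 bases before to 50 bases after a RefSeq transcription start on GRCm38.p6, written 5' to 3' on the gene's own strand. They lie at chr17:29090729-29091028 (+ strand) for Cdkn1a, chr6:134920151-134920450 (+ strand) for Cdkn1b and chr9:21291160-21291459 (- strand) for Cdkn2d. Capitals mark the p53 half-site in Cdkn1a and the GC box GGGCGG, on either strand, in Cdkn1b and Cdkn2d.
Cdkn1a: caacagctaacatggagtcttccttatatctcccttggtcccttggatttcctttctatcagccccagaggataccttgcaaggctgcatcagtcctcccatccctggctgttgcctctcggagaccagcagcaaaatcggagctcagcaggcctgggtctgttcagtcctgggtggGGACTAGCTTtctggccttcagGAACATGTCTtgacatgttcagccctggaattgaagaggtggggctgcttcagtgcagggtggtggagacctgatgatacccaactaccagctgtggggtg
Cdkn1b: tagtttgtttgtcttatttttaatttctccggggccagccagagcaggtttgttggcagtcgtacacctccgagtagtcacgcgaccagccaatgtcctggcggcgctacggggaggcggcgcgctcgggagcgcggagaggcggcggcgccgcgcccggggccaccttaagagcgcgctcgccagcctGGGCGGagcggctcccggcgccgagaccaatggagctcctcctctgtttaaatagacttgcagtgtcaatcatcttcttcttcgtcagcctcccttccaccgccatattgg
Cdkn2d: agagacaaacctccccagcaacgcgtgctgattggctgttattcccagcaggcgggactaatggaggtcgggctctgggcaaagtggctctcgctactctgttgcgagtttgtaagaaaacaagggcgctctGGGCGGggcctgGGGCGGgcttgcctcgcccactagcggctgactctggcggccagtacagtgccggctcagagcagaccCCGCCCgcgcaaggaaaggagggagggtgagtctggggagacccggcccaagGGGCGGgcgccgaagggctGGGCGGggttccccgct
The Cdkn1a window held 2 matches to the p53 half-site, a motif found in 8.36% of 32851 promoter windows of this length, and no GC box. The window of a second Cdkn1a start, at chr17:29093519-29093818, held 0 p53 half-sites and 2 GC boxes. The Cdkn1b window held 1 GC box and 3 CCAAT boxes, and the Cdkn2d window held 5 GC boxes, 1 CCAAT box and 1 p53 half-site. A GC box occurred in 35.7% of all windows and the letters CCAAT in 37.4%, both strands counted. The first of 2 Cdkn2c starts, at chr4:109666707-109667006, had 4 GC boxes, and the second had 0. The letters TTTNNCGC, as in E2F sites, and TTTGAA, the cell cycle homology element, were in none of the 6 windows of the 4 members with an entry, against 5.17% and 17.9% of all windows. These are matches of letters, not sites of binding.

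All 5 genes lie in distinct places of GRCm38, by the GENCODE M21 annotation. Cdkn1a (ENSMUSG00000023067) spans 29090976 to 29100727 on chromosome 17, and Cdkn1b (ENSMUSG00000003031) spans 134920401 to 134925513 on chromosome 6, both on the + strand. Cdkn1c (ENSMUSG00000037664) spans 143458339 to 143461050 on chromosome 7, Cdkn2c (ENSMUSG00000028551) 109660876 to 109667189 on chromosome 4 and Cdkn2d (ENSMUSG00000096472) 21288410 to 21291407 on chromosome 9, all on the - strand. Read with the displacement, they held 359, 125, 451, 190 and 1312 counts in the order named here. Under their own labels the same genes had 0, 21, 0, 236 and 21 counts. No annotated gene lay between a member and the row it was read from. The annotation places AC167363.2 over Cdkn1a and Gm44732 over Cdkn1c. The Gm44732 count was 0 and AC167363.2 was not analysed here.

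The displaced reading was checked on fixed genes other than the members and on coding shares of counts, which include the members' own counts. Protein-coding genes took 92.8% of the 7037513 counts when read with the displacement and 52.0% as labelled. The 10 abundant genes used for this check, counted together, held 254876 counts as read and 7044 as labelled, with Actb, the gene of beta-actin, at 25599 and 136. Among the 51 genes around each member, the coding share as read was 56.7% at Cdkn1b and 87.1% to 99.7% at the other members, against 16.5% to 65.4% as labelled. The check on 10 genes of other tissues did not separate the readings by its sum, at 681 counts as read and 647 as labelled. Alb, the gene of serum albumin, held 659 of those as read, and Ins1, Pax6 and Gfap held 283, 187 and 102 as labelled, against 0, 8 and 12 as read.

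Total counts came to 2791584 (mAG+), 1608630 (mKO2neg), 1703263 (mKO2low) and 934036 (mKO2high), and the median cell held 45177 counts for mAG+, 24633 for mKO2neg, 26851.5 for mKO2low and 14510.5 for mKO2high. No cell name was shared by the libraries. Cells with under 1000 counts numbered 3 mAG+, 5 mKO2neg, 0 mKO2low and 4 mKO2high, and the lowest mKO2high cell had 0 counts. Shares out of 48 cells include these cells. Because depth differed, the share of cells with a count is also given after thinning each cell to 5000 counts, which left 45 mAG+, 43 mKO2neg, 48 mKO2low and 39 mKO2high cells. Stem cell markers, 13 of 13 with counts in every gate, summed to 1779 CPM (mAG+), 2296 CPM (mKO2neg), 2338 CPM (mKO2low) and 3109 CPM (mKO2high). Granulocyte and monocyte markers summed to 851 CPM (mAG+), 1530 CPM (mKO2neg), 1102 CPM (mKO2low) and 1151 CPM (mKO2high). B lymphoid markers came to 197 CPM in mAG+ cells, of which 1 cell held 76.2%, and 81.4 to 106 CPM elsewhere. Megakaryocyte markers came to 190 CPM for mAG+, 247 for mKO2neg, 183 for mKO2low and 424 for mKO2high, where Pf4 held 187. Erythroid markers were at 2014 to 2742 CPM, mostly Car2 at 1850 to 2545 CPM, with Klf1 at 0 in all gates but mKO2neg (5 counts in 1 cell). T and NK markers came to 0 to 38.0 CPM and those of stroma and endothelium to 22.9 to 33.3 CPM, and the part of any marker list in the members' values was not tested beyond the 4 cells below. At least 50 counts of defining mature markers were found in 4 cells: 1 mAG+ cell with B lymphoid markers, and 1 mAG+, 1 mKO2neg and 1 mKO2high cell with granulocyte markers. Leaving out these 4 cells kept every member's ratio inside its interval. In gate sums, fewer expressing cells and less RNA per cell cannot be told apart.

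**Figure D1:**
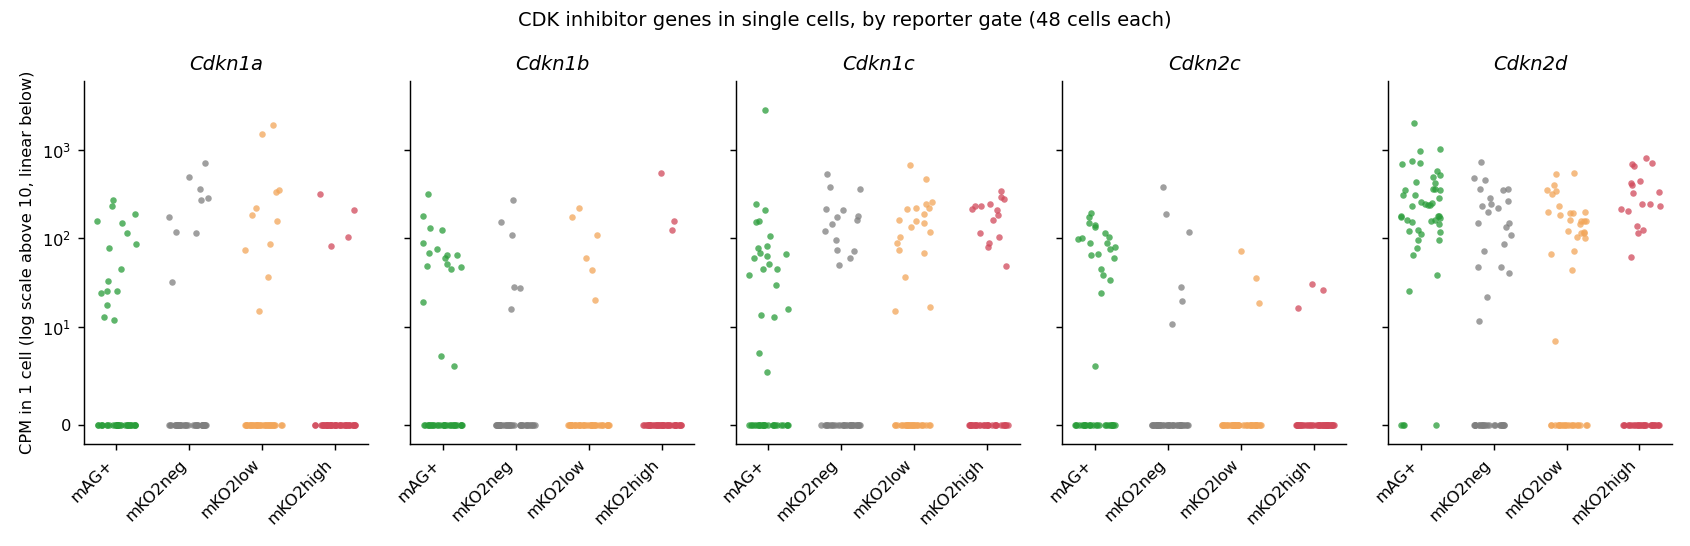
Each point is 1 of the 48 cells of a gate, and the vertical axis is the gene's CPM in that cell (log scale above 10, linear below). Cells at 0 outnumber cells with a count in all panels other than Cdkn2d in mAG+ (44 of 48 cells with a count) and in mKO2low (27 of 48). For Cdkn2d, mKO2neg had 23 of 48, and 5 of its 48 cells had under 1000 counts, against 0 in mKO2low. The highest Cdkn1c point, in mAG+, is a cell with under 1000 counts.

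Cdkn1a, the Cip/Kip inhibitor that p53 induces, had its highest gate sum in mKO2low cells, where 2 of 48 cells held 90 of 141 counts. Its gate sum was 46.6 CPM in mAG+ cells (130 counts), 43.5 in mKO2neg (70), 82.8 in mKO2low (141) and 19.3 in mKO2high (18). The 95% Poisson interval was 69.7 to 97.6 CPM in mKO2low and lay above those of the other 3 gates, while the mAG+ interval (38.9 to 55.3) and the mKO2neg interval (33.9 to 55.0) overlapped. Intervals of CPM and of ratios cover counting error only. They treat reads as independent, which reads need not be, so they can be too narrow. Intervals of shares of cells treat the cells of a gate as independent draws, and neither kind covers differences between samples. The gene had a count in 16 mAG+, 9 mKO2neg, 11 mKO2low and 4 mKO2high cells. At equal depth these were 13.3% of mAG+, 14.0% of mKO2neg, 18.8% of mKO2low and 7.69% of mKO2high cells, and all 4 intervals overlapped. Among cells with a count, the mKO2low cells ranged from 14.8 to 1891 CPM around a median of 183 CPM, and the mAG+ cells from 11.9 to 273 CPM around 60.9 CPM. A few cells carried the gene: the highest cell held 29.2% of the mAG+, 27.1% of the mKO2neg, 36.2% of the mKO2low and 72.2% of the mKO2high counts. Without the 2 highest cells of each gate, Cdkn1a stood at 25.3 CPM for mAG+, 23.7 for mKO2neg, 30.9 for mKO2low and 2.32 for mKO2high.

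Cdkn1b, whose protein the Skp2 ligase degrades as cells enter S phase, was highest in mAG+ cells. It had 27.9 CPM in mAG+ cells (78 counts), 10.6 in mKO2neg (17), 12.9 in mKO2low (22) and 8.56 in mKO2high (8). The mAG+ interval, 22.1 to 34.9 CPM, lay above the intervals of the other 3 gates, which overlapped one another. It was detected in 17 mAG+, 6 mKO2neg, 6 mKO2low and 3 mKO2high cells. Thinned to equal depth, 15.6% of mAG+, 4.65% of mKO2neg, 6.25% of mKO2low and 7.69% of mKO2high cells had a count, and these intervals overlapped. In mKO2neg 1 cell held 52.9% of the 17 counts.

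Cdkn1c, an imprinted gene and the Cip/Kip member most tied to stem cell quiescence, had 36.5 CPM in mAG+ cells (102 counts). It had 95.7 CPM in mKO2neg (154), 70.5 in mKO2low (120) and 80.3 in mKO2high cells (75). The mAG+ interval, 29.8 to 44.4 CPM, lay below all others, and the mKO2high interval, 63.2 to 101 CPM, overlapped those of mKO2neg (81.2 to 112) and mKO2low (58.4 to 84.2). Cells with a count did not follow that order: they numbered 22 (mAG+), 15 (mKO2neg), 20 (mKO2low) and 15 (mKO2high). With 5000 counts per cell, 15.6% of mAG+, 20.9% of mKO2neg, 20.8% of mKO2low and 20.5% of mKO2high cells had one, with overlapping intervals. Among cells with a count the median was 61.1 CPM in mAG+, against 162 CPM (mKO2neg), 152 CPM (mKO2low) and 209 CPM (mKO2high). The mAG+ cells with a count were also the deepest, with a median of 55746 counts, against 20330 for mKO2neg, 26851.5 for mKO2low and 21636 for mKO2high.

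A single mKO2neg cell held 80 of the gate's 154 Cdkn1c counts, or 51.9%. It was also the deepest of that gate, with 210516 counts (13.1% of the gate), and it held 25 of 58 Cdkn2c counts and 80 of the gate's Mki67 counts (74.1%). It carried 72.6% of the gate's counts of Ccna2, the S phase and mitotic cyclin, and 80.5% of those of Birc5, a mitotic gene. Every mKO2neg gate sum of Cdkn1c and Cdkn2c below is read beside this cell.

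Cdkn2c, an INK4 inhibitor of Cdk4 and Cdk6, was spread over mAG+ cells, lay mostly in 2 mKO2neg cells and was at the limit of counting in both gates of the other library. Its level was 44.8 CPM in mAG+ cells (125 counts) and 36.1 in mKO2neg (58), but 2.35 in mKO2low (4) and 3.21 in mKO2high (3). It was detected in 21 mAG+, 6 mKO2neg, 3 mKO2low and 3 mKO2high cells. The deep mKO2neg cell and a second cell of that gate held 25 counts each, and the other mKO2neg cells 8 counts, or 6.01 CPM. Without the 2 highest cells of mAG+, 89 counts, or 34.7 CPM, remained. At equal depth 15.6% of mAG+ and 9.30% of mKO2neg cells had a count. In mKO2low (0 of 48 cells) and mKO2high (0 of 39) none did, which allows a share of up to 7.40% and 9.03%. The B lymphoid marker cell of mAG+ held 20 of that gate's 125 counts.

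Cdkn2d, the other INK4 inhibitor here, had the most counts and was the only member with a count in most cells of any gate. It stood at 289 CPM in mAG+ cells (806 counts, interval 269 to 309), 107 in mKO2neg (172, 91.5 to 124), 113 in mKO2low (193, 97.9 to 130) and 151 in mKO2high (141, 127 to 178). The mAG+ value lay above the other 3. In mAG+, 44 of 48 cells (91.7%, 80.0% to 97.7%) had a count, against 23 mKO2neg, 27 mKO2low and 18 mKO2high cells. Thinned to 5000 counts, a count was seen in 60.0% of mAG+ (44.3% to 74.3%), 27.9% of mKO2neg (15.3% to 43.7%) and 27.1% of mKO2low cells (15.3% to 41.8%), and the mAG+ interval cleared both of these. The thinned mKO2high share of 38.5% (23.4% to 55.4%) overlapped all 3. Counts were spread over cells, the highest cell holding 11.9% of the mAG+, 18.0% of the mKO2neg, 15.5% of the mKO2low and 19.1% of the mKO2high counts.

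**Figure D2:**
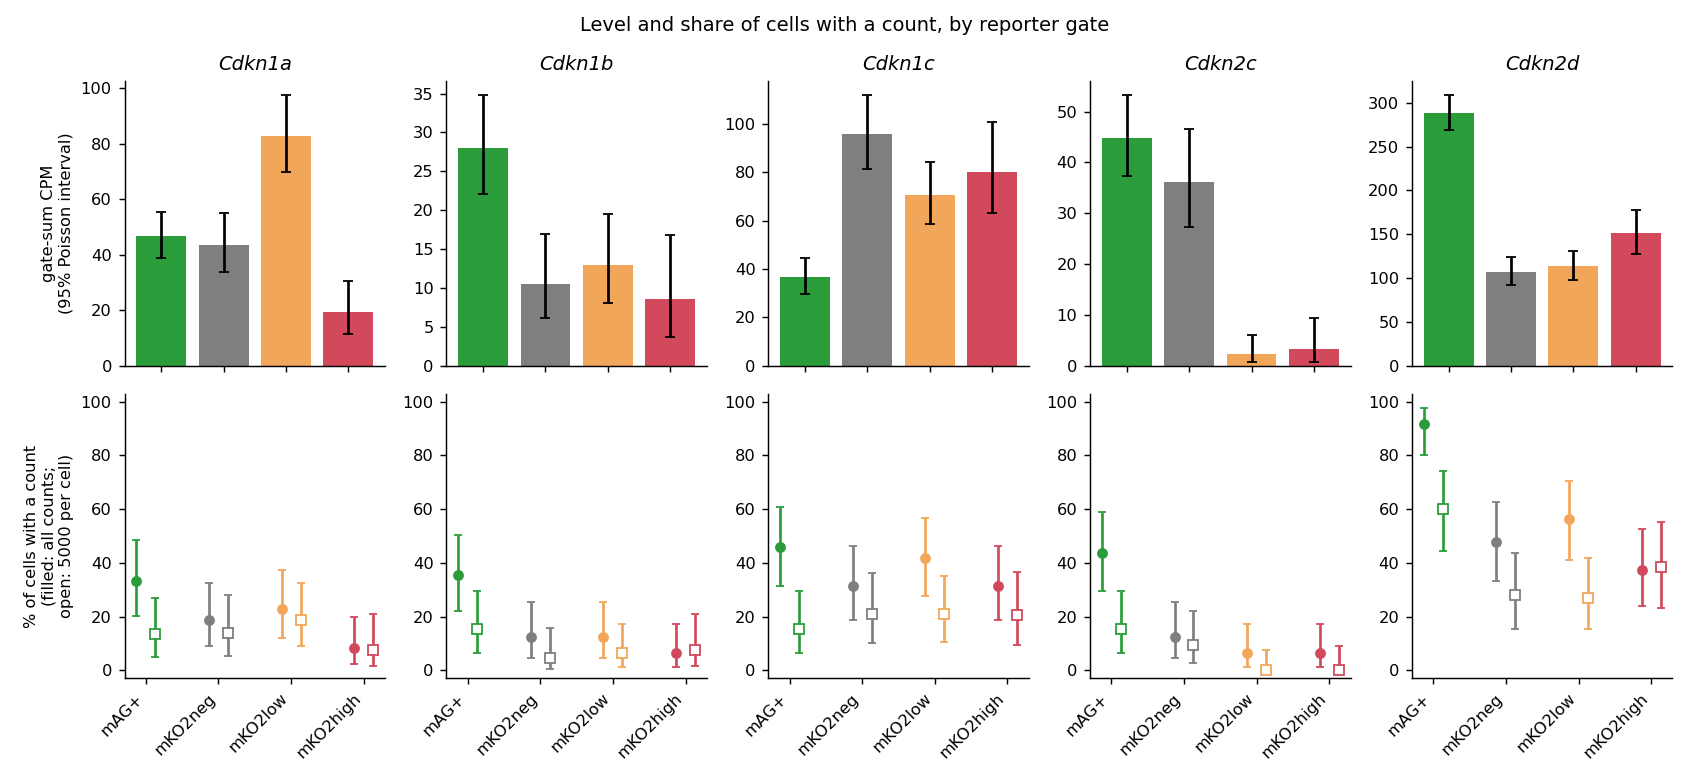
The upper row gives the gate-sum CPM of each gene in the 4 gates with its exact 95% Poisson interval. The lower row gives the percent of cells with a count from all counts (filled) and at 5000 counts per cell (open), with Clopper-Pearson 95% intervals, and Cdkn2d in mAG+ is the highest of both kinds, at 91.7% and 60.0%.

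The remaining INK4 genes were near absent. Cdkn2a, the senescence-linked locus that codes for an INK4 protein and the Arf protein, had 0 counts in every gate, below the floor of 3 counts per gate (a limit of 1.07 CPM for mAG+, 1.86 for mKO2neg, 1.76 for mKO2low and 3.21 for mKO2high). Cdkn2b, its neighbour and a TGF-beta target, had 6 counts in 1 mKO2neg cell and 2 counts in 1 mKO2high cell.

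The comparison of mAG+ with mKO2neg cells sets cells with the S, G2 and M reporter against cells without the G0 and G1 reporter in the same library. Cdkn2d and Cdkn1b were higher in mAG+ cells, Cdkn1c was lower, and Cdkn1a and Cdkn2c differed by less than their counting intervals. On the log2 scale of gate-sum CPM with a prior count of 1, the ratio was 1.43 for Cdkn2d (interval 1.19 to 1.68), 1.37 for Cdkn1b (0.63 to 2.25) and -1.38 for Cdkn1c (-1.77 to -1.02). It was 0.10 for Cdkn1a (-0.33 to 0.54) and 0.31 for Cdkn2c (-0.15 to 0.79). At least 2-fold higher were 2 of the 5 members, where 21.2% of 12115 genes with 10 or more counts were. At least 2-fold lower was 1 of 5, where 14.6% were, and the member median of 0.31 stood beside 0.06 for all genes.

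The Cdkn1c ratio was -0.74 when each gate's largest Cdkn1c cell was left out and -0.45 when its deepest cell was. Weighting all cells equally turned it to 0.62, where 1 mAG+ cell with under 1000 counts and a single Cdkn1c count weighed 2809 CPM, and was -0.93 over cells with at least 5000 counts. Equal weights also gave -0.79 for Cdkn1a and 1.31 for Cdkn2c, and leaving out each gate's 2 highest cells gave 2.43 for Cdkn2c and 2.77 for Cdkn1b. At equal depth the Cdkn2d ratio was 0.63, from 46 against 28 counts, and the Cdkn1b ratio 1.82, from 10 against 2 counts. With all counts of those cells, at equal weight for each cell, the ratios were 1.28 for Cdkn2d and 1.13 for Cdkn1b.

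The comparison of mKO2low with mKO2high cells, within the other library, sets a low against a high level of the G0 and G1 reporter. Cdkn1a was higher in mKO2low cells and Cdkn2d slightly lower. The log2 ratio was 2.06 for Cdkn1a (interval 1.39 to 2.90) and -0.41 for Cdkn2d (-0.73 to -0.09). The intervals for Cdkn1b (0.55, -0.63 to 1.97) and Cdkn1c (-0.19, -0.62 to 0.25) included 0. Cdkn2c, with 4 against 3 counts, gave no usable ratio (-3.02 to 2.32). One of the 4 members with 10 or more counts was at least 2-fold higher, beside 19.6% of 10901 genes, and 0 were at least 2-fold lower, beside 15.0%.

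The Cdkn1a contrast rested on 11 mKO2low and 4 mKO2high cells. Without the largest Cdkn1a cell of each gate, which in mKO2high held 13 of 18 counts, the log2 ratio was 3.06, and without the 2 largest, with 51 mKO2low and 2 mKO2high counts left, it was 3.35.

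**Figure D3:**
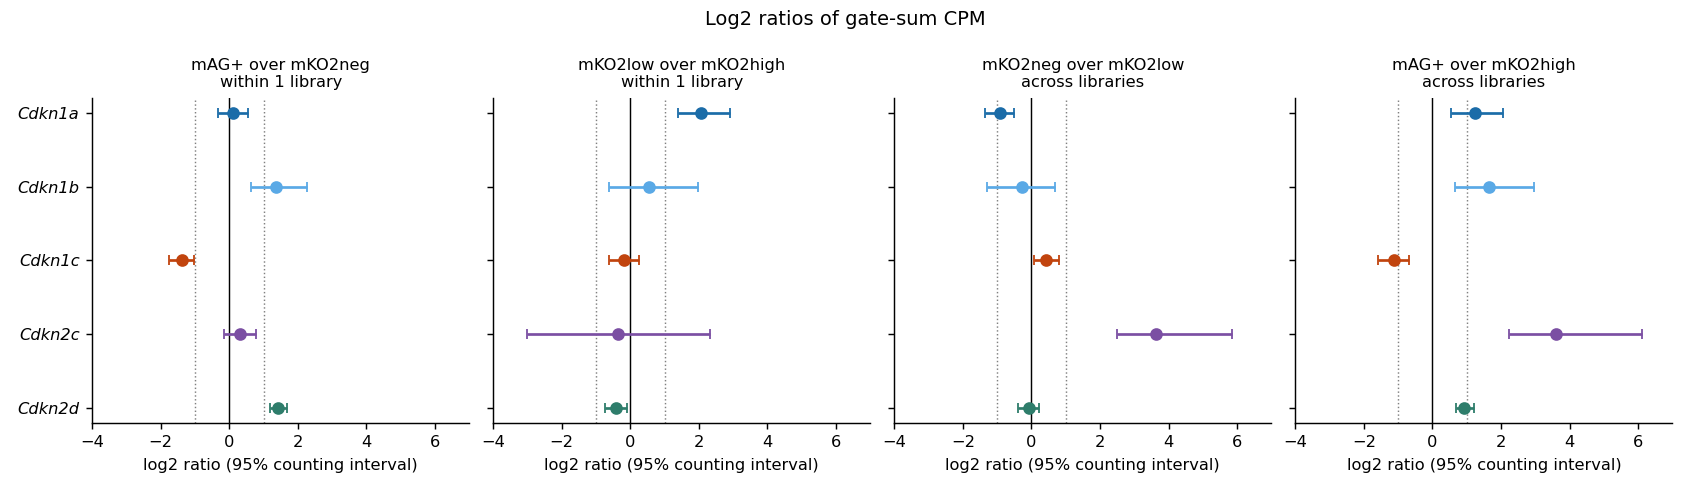
Points are log2 ratios of gate-sum CPM of each gene for 4 pairs of gates, and bars are exact conditional binomial 95% intervals for counting error. Dotted lines mark 2-fold. In mAG+ over mKO2neg, Cdkn1b and Cdkn2d lie to the right and Cdkn1c to the left, and in mKO2low over mKO2high only Cdkn1a lies past 2-fold.

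Across libraries, gate and library cannot be told apart. mKO2neg cells had more Cdkn2c than mKO2low cells, with a log2 ratio of 3.63 (interval 2.51 to 5.86) from 58 against 4 counts. Without the 2 highest cells of each gate, 8 mKO2neg counts and 1 mKO2low count remained. Cdkn1a was lower in mKO2neg cells, at -0.92 (-1.36 to -0.50), and at -0.38 without its 2 highest cells in each gate. Cdkn2d (-0.08, -0.39 to 0.22) and Cdkn1b (-0.28, -1.29 to 0.69) had intervals that included 0. The Cdkn1c ratio of 0.44 (0.09 to 0.80) became -0.51 without the deepest cell of each gate. One of 5 members was at least 2-fold higher, beside 15.3% of 11375 genes, and 0 lower, beside 16.7%.

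Between mAG+ and mKO2high cells, the gates with the S, G2 and M reporter and with the most G0 and G1 reporter, Cdkn2c had a log2 ratio of 3.60 (2.22 to 6.10) against only 3 mKO2high counts. Cdkn1b was at 1.65 (0.66 to 2.97, from 78 against only 8 counts), Cdkn1a at 1.25 (0.56 to 2.07) and Cdkn2d at 0.93 (0.68 to 1.20), all higher in mAG+ cells. Cdkn1c was lower, at -1.12 (-1.58 to -0.69). With equal weight for each cell it was 0.62, where the same mAG+ cell with under 1000 counts weighed 2809 CPM. Over cells with at least 5000 counts, equal weights gave -0.95. Members at least 2-fold higher numbered 3 of 5, where 26.2% of 11849 genes were, and 1 was at least 2-fold lower, where 17.1% were. At equal depth the Cdkn2d ratio was 0.27, from 46 against 33 counts, and the Cdkn1b ratio 0.47, from 10 against 6 counts. With all counts of those cells, at equal weight for each cell, the ratios were 0.98 for Cdkn2d and 0.53 for Cdkn1b.

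Among the targets of the inhibitors, the 3 D cyclin genes were lower and Cdk1, Ccna2 and Ccne2 higher in mAG+ than in mKO2neg cells. In mAG+ against mKO2neg cells, 1 of 4 kinases was at least 2-fold higher, where 21.2% of all genes were. It was Cdk1, the mitotic kinase, with 657 CPM in mAG+ and 114 CPM in mKO2neg cells (log2 ratio 2.52, 2.31 to 2.76). Cdk4 and Cdk6, the kinases that INK4 proteins bind, were at 401 and 147 CPM in mAG+ cells and 477 and 77.7 CPM in mKO2neg cells. Of 6 cyclin genes with 10 or more counts, 2 were at least 2-fold higher, beside 21.2% of all genes, and 3 at least 2-fold lower, beside 14.6%. The 3 lower ones were the D cyclins, the partners of Cdk4 and Cdk6: Ccnd2 (308 CPM in mAG+, 884 in mKO2neg), Ccnd3 (52.7 in mAG+, 126 in mKO2neg) and Ccnd1 (3.94 in mAG+, 23.0 in mKO2neg). The higher ones were Ccna2 (389 CPM in mAG+, 52.2 in mKO2neg) and Ccne2 (25.4 in mAG+, 1.24 in mKO2neg), which partner Cdk2. Cdk2 itself (93.1 CPM in mAG+, 67.1 in mKO2neg) and its partner Ccne1 (14.0 in mAG+, 15.5 in mKO2neg) were under 2-fold.

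In the other library Ccnd2 had 857 CPM in mKO2low and 1429 CPM in mKO2high cells, a log2 ratio of -0.74 (-0.85 to -0.63). Among the pocket proteins, which the kinases phosphorylate, Rb1 had 39 counts in mAG+ and 0 in mKO2neg cells. With mKO2neg set to the floor of 3 counts, the fold was 7.49, and the lower 95% limit of the log2 ratio was 2.54. In the other library Rb1 had 0 counts in mKO2low and 5 in mKO2high cells. In mKO2low cells Rbl2, the pocket protein of resting cells, had 12.3 CPM against 28.9 CPM in mKO2high cells (log2 ratio -1.18, -2.12 to -0.35).

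The list tied to the turnover of Cip/Kip proteins, Pcna included, had 11 genes with 10 or more counts. Of these, 8 were higher in mAG+ than in mKO2neg cells. In mKO2low against mKO2high cells 9 of 11 were higher. Among all genes 6397 of 12115 and 5690 of 10901 were higher in these comparisons. At least 2-fold higher in mAG+ than in mKO2neg cells were 3 of 11, near the 21.2% of all genes, and 0 were at least 2-fold lower, beside 14.6%. The list's median was 0.14, and the scaffold genes Cul4a (-0.73, -1.21 to -0.26) and Cul1 (-0.46, -0.72 to -0.19) were lower. Cks1b, the cofactor with which Skp2 recognises the Cdkn1b protein, had 470 CPM in mAG+ and 79.6 CPM in mKO2neg cells (log2 ratio 2.56, 2.30 to 2.84). Skp2 had 47.3 CPM in mAG+ and 18.6 CPM in mKO2neg cells (1.32, 0.76 to 1.97), and Cul4b, a scaffold of other ligases, had 40.8 CPM in mAG+ and 9.32 CPM in mKO2neg cells (2.08, 1.35 to 3.01). In mKO2low against mKO2high cells the list's median was 0.42, beside 0.05 for all genes, and 0 of 11 were at least 2-fold lower, beside 15.0%. At least 2-fold higher were 3 of 11, near the 19.6% of all genes. They were Skp2 (12.3 CPM in mKO2low, 3.21 in mKO2high), Cul4b (20.5 in mKO2low, 8.56 in mKO2high) and Ubac1 (29.4 in mKO2low, 12.8 in mKO2high), part of a ligase that degrades the Cdkn1b protein in G1. Cks1b was lower there (-0.62, -1.14 to -0.12).

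Known regulators of the inhibitors showed no common direction between mAG+ and mKO2neg cells, with the list's median at -0.02. At least 2-fold higher were 2 of 18, where 21.2% of all genes were, and 2 were at least 2-fold lower, where 14.6% were. Myc, which represses Cdkn1a, had 121 CPM in mAG+ and 249 CPM in mKO2neg cells. Hes1, a Notch target known to repress Cdkn1b, had 26.2 CPM in mAG+ and 87.0 CPM in mKO2neg cells (log2 ratio -1.72, -2.16 to -1.32). Smad4, a TGF-beta mediator, had 34.4 CPM in mAG+ and 8.70 CPM in mKO2neg cells. Ezh2, which silences the Cdkn2a locus, was higher in mAG+ cells with a log2 ratio of 1.31.

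In mKO2low against mKO2high cells, where Cdkn1a was higher, 4 of 18 regulators were at least 2-fold higher and 1 lower, near the 19.6% and 15.0% of all genes. Foxo3, a factor that with Smad proteins activates Cdkn1a, had 44.0 CPM in mKO2low and 19.3 CPM in mKO2high cells (log2 ratio 1.16, 0.44 to 2.02). Smad3 had 18.8 CPM in mKO2low and 5.35 in mKO2high cells (1.68, 0.44 to 3.53), and the receptor gene Tgfbr2 had 21.7 CPM in mKO2low and 6.42 CPM in mKO2high cells (1.65, 0.50 to 3.29). Trp53 had 286 CPM in mKO2low and 208 CPM in mKO2high cells, and Mdm2, its own target and inhibitor, 48.7 CPM in mKO2low and 70.7 CPM in mKO2high cells. Hes1 had 72.8 CPM in mKO2low and 34.3 CPM in mKO2high cells (1.07, 0.52 to 1.70). The 1 lower gene was Gfi1, a repressor of Cdkn1a, with 1.76 CPM in mKO2low and 11.8 CPM in mKO2high cells (-2.31, -5.22 to -0.82). It rested on 3 against 11 counts. The intervals of Smad2 (0.39, -0.34 to 1.19) and Smad4 (-0.49, -1.14 to 0.15) included 0. Trp53, Mdm2, Gfi1, Smad2 and Smad4 were named here after their values were seen. Whether these genes bear on Cdkn1a was not tested.

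**Figure D4:**
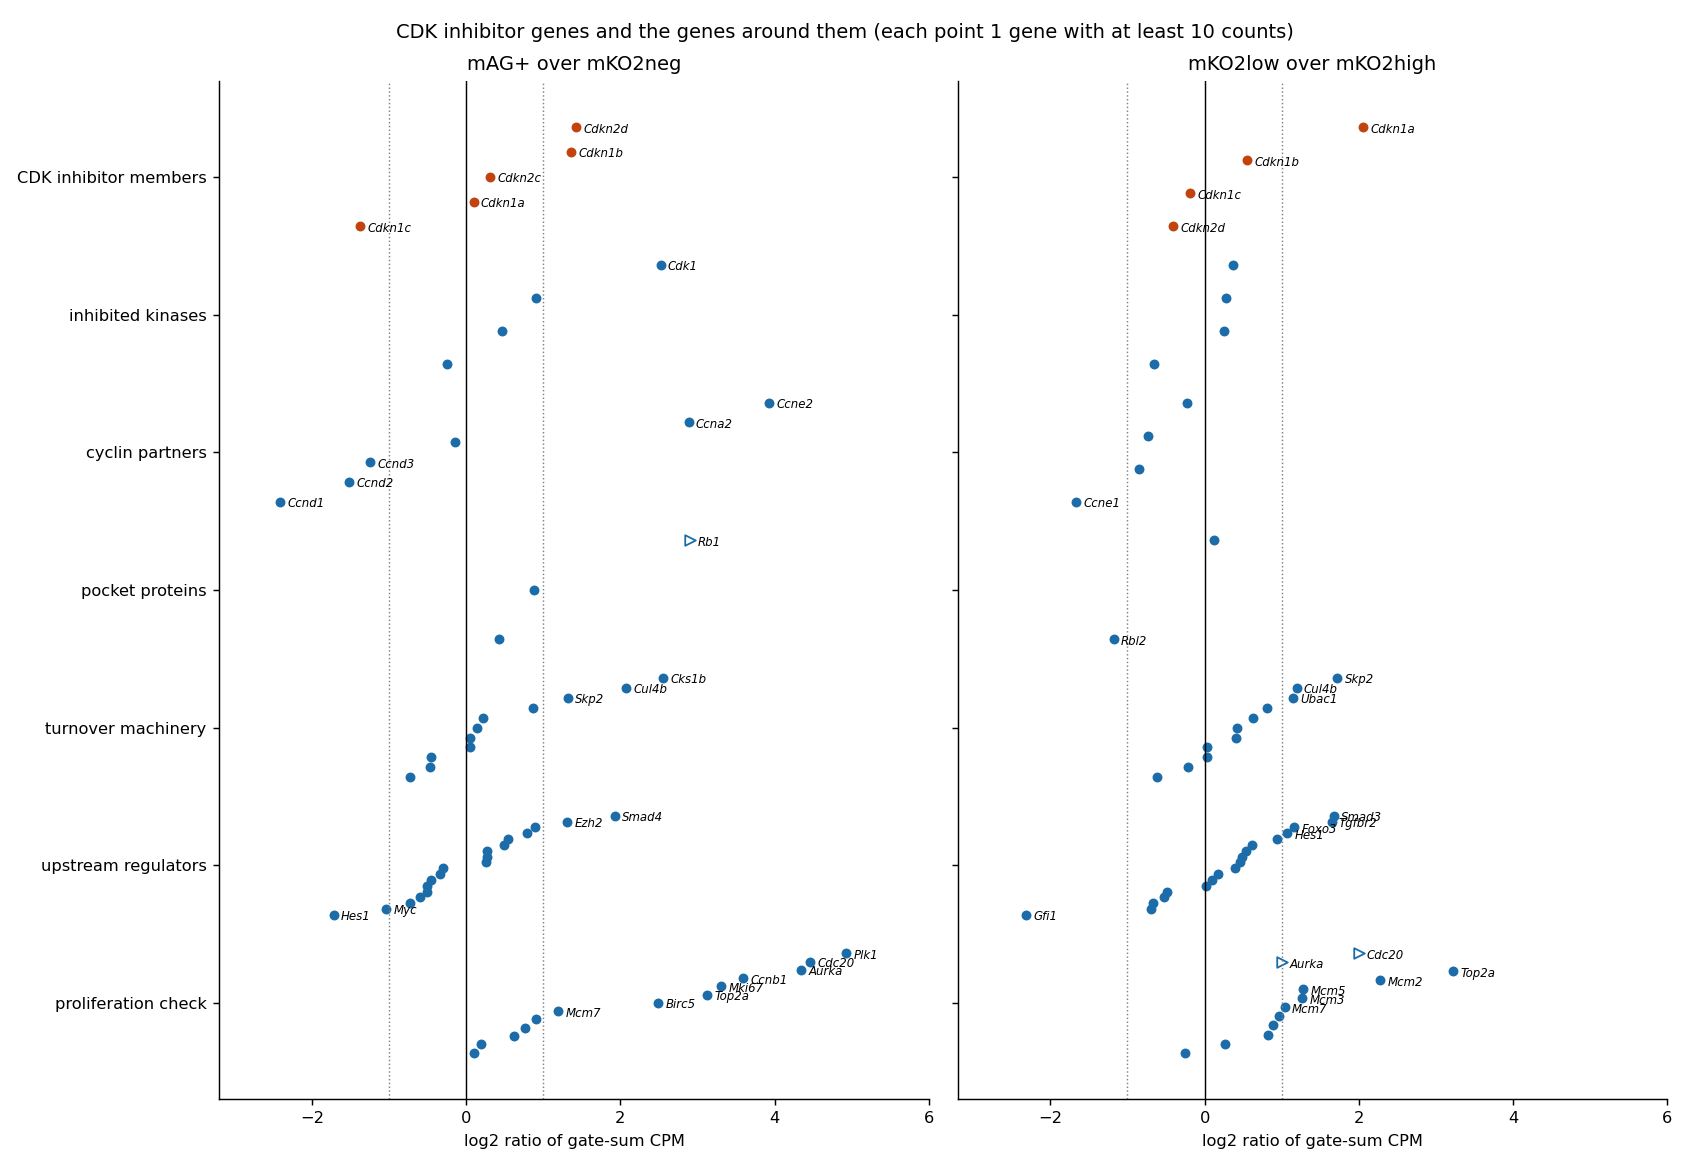
Each point is 1 gene with at least 10 counts over both gates, at its log2 ratio of gate-sum CPM, for the members and the lists around them. Open triangles are genes with 0 counts in the second gate, drawn at the floor of 3 counts, and dotted lines mark 2-fold. The proliferation genes lie furthest to the right in mAG+ over mKO2neg, with 8 of 13 at least 2-fold higher, where 21.2% of all genes were.

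The reporter gates were checked on 13 proliferation genes. In mAG+ cells 8 of 13 were at least 2-fold higher than in mKO2neg cells, where 21.2% of all genes were. At least 2-fold lower were 0, where 14.6% of all genes were. The list's median log2 ratio was 2.49, and Mki67, the proliferation antigen, had 668 CPM in mAG+ and 67.1 CPM in mKO2neg cells. In mKO2low cells, 7 of 12 were at least 2-fold higher than in mKO2high cells, with a median of 1.15, or 1.02 with genes at 0 set to the floor, where 19.6% of all genes were. Of those 7, Mcm2, Mcm3, Mcm5 and Mcm7 are replication licensing genes. The others were Top2a (79 mKO2low and 4 mKO2high counts), Cdc20 (22 and 0 counts) and Aurka (11 and 0 counts). Mki67 had 5.28 CPM in mKO2low and 4.28 CPM in mKO2high cells, and Birc5 5.28 CPM in mKO2low and 6.42 CPM in mKO2high cells.

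Detection together with Mki67 was counted in each gate. In mAG+, 44 of 48 cells had an Mki67 count, and these cells held all counts of Cdkn1a, Cdkn1b and Cdkn2c, 101 of 102 of Cdkn1c and 805 of 806 of Cdkn2d. The other 4 mAG+ cells had a median depth of 425 counts. In mKO2neg, 14 cells had an Mki67 count, and they held 52 of 58 Cdkn2c counts and 126 of 154 Cdkn1c counts, including the deep cell described above. Those 14 cells held 80 of 172 Cdkn2d, 28 of 70 Cdkn1a and 1 of 17 Cdkn1b counts. Their median depth was 30013.5 counts, against 23030 in mKO2neg cells without Mki67. In mKO2low, 8 cells with Mki67 held 42 of 120 Cdkn1c and 11 of 141 Cdkn1a counts.

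Inhibitors detected in the same cell were counted by gate, of which mAG+ was the deepest. At least 3 members had a count in 22 mAG+, 6 mKO2neg, 6 mKO2low and 1 mKO2high cells, and no member had one in 2 mAG+, 16 mKO2neg, 10 mKO2low and 19 mKO2high cells. The cells with no member include all 5 mKO2neg and all 4 mKO2high cells with under 1000 counts. In mAG+, Cdkn2d had a count in 91.7% of all cells, and so also in 16 of 16 cells with Cdkn1a, 16 of 17 with Cdkn1b, 20 of 22 with Cdkn1c and 20 of 21 with Cdkn2c. Depth moved with these numbers, since the mAG+ cells with 3 or more members had a median of 60485 counts and the 2 with none 6041.5. At 5000 counts per cell, 3 or more members were seen in 2 of 45 mAG+, 2 of 43 mKO2neg, 0 of 48 mKO2low and 1 of 39 mKO2high cells. At that depth, 22.2% of mAG+ cells had no member, against 48.8% of mKO2neg, 43.8% of mKO2low and 46.2% of mKO2high cells.

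**Figure D5:**
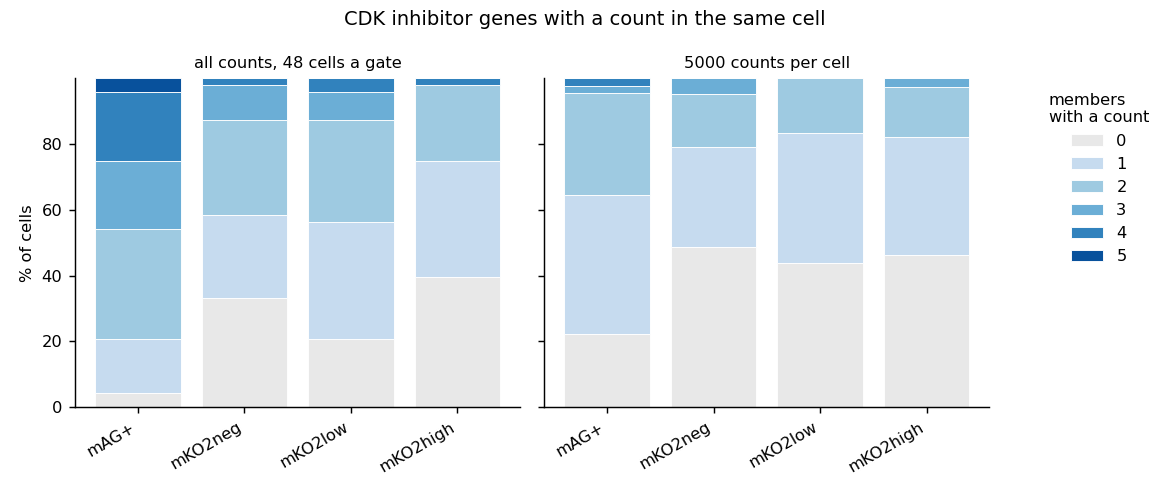
Bars show the percent of cells in each gate with 0 to 5 of the members detected, from all counts (left, 48 cells a gate) and at 5000 counts per cell (right). The part with 0 members is smallest in mAG+ on both sides, at 4.17% and 22.2%.

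Across the 175 cells with at least 5000 counts, the correlation between members within gates, on log2(CPM + 10) less the gate mean, ran from -0.07 to 0.20. The gene most like each member among 8762 compared had a Pearson r of 0.318 (Cdc7, for Cdkn1a), 0.354 (Cbx3-ps7, for Cdkn1b), 0.339 (Egr1, for Cdkn1c), 0.382 (Gpsm2, for Cdkn2c) and 0.281 (2310009B15Rik, for Cdkn2d). The points share depth and library, and correlations this weak in sparse counts are given as a description only.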

How the data were processed

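Single bone marrow cells were sequenced in 2 libraries, and a deposited table of other, non-numeric entries gave each cell's gate. The authors deposited raw counts, whole numbers per cell and gene row, without normalization. The submitters' processing notes name HISAT2, HTSeq 0.11.3, Seurat and mm10 but no role for any. Which annotation, filters or molecular identifiers were used is not given in the sources used here. Reads may therefore not be independent molecules, though the counting intervals treat them as such.

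The deposited IDs were placed in the gene order of GENCODE release 21 for mouse (GRCm38, the assembly of mm10), and each gene took the counts of the row before it. The 105 rows of 53378 not found there, with 0.222% of the counts, were left out of the reading. Members and gene lists were chosen with earlier results of these data known. From each list around the members, at most 4 genes past 2-fold whose interval excluded 0 were named, by total counts, plus genes that bind or degrade a member. The most similar gene to each member was taken over genes detected in at least 20 cells.

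Counts were summed per gate and scaled to CPM. Ratios used a prior count of 1 and a minimum of 10 counts over both gates, with exact 95% intervals. No doublet caller was run, because the protocol placed cells singly. Promoters are from RefSeq on GRCm38.p6, and 4 of 5 members had an entry. Alternatives were TMM factors (edgeR 4.0.16), size factors (DESeq2 1.42.0), cell filters, thinning, equal cell weights, other prior counts and the labels as deposited. Calculations used Python 3.11.15, numpy 2.4.6, pandas 2.3.3 and scipy 1.17.1. The interval code was checked on simulated Poisson counts, the model that the intervals assume. That check does not cover counts held by few cells.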

Additional observations from a re-analysis of the deposited data

How the results depend on the processing

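Within a library, 22 of 122 alternative values lay outside the reported interval, 7 of them with another sign than the reported value. Across libraries 21 of 124 did, 9 of them with another sign. No paired analysis was possible because each gate is 1 sample and the libraries share no replicate numbers. TMM factors, DESeq2 size factors, the cell filter, the other prior counts and leaving out the 4 cells with mature markers kept all log2 ratios inside their intervals. Leaving out those 4 cells or the 2 largest cells of a gene, and equal weight over cells with at least 5000 counts, were chosen after seeing the data. The cause of the shifts below was not tested.

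Without the largest cell of the gene in each gate, Cdkn1c was -0.74 in mAG+ over mKO2neg and -0.093 in mKO2neg over mKO2low, and Cdkn1a was 3.06 in mKO2low over mKO2high and 2.48 in mAG+ over mKO2high. Without the 2 largest cells of the gene in each gate, mAG+ over mKO2neg was 2.77 for Cdkn1b, -0.68 for Cdkn1c and 2.43 for Cdkn2c, and mKO2neg over mKO2low was -0.38 for Cdkn1a, -0.046 for Cdkn1c and 2.37 for Cdkn2c. Cdkn1a was then 3.35 in mKO2low over mKO2high and 3.15 in mAG+ over mKO2high. Without the deepest cells, mAG+ over mKO2neg was -0.45 for Cdkn1c and 0.84 for Cdkn2c, and mKO2neg over mKO2low was -0.51 for Cdkn1c. With equal weight for each cell, mAG+ over mKO2neg was -0.79 for Cdkn1a, 0.62 for Cdkn1c and 1.31 for Cdkn2c. The same weights gave Cdkn1c 0.35 in mKO2low over mKO2high and -0.34 in mKO2neg over mKO2low, and Cdkn2c 2.31 in mKO2neg over mKO2low. In mAG+ over mKO2high they gave Cdkn1c 0.62 and Cdkn2d 1.24. With equal weight over cells of at least 5000 counts, mAG+ over mKO2neg was -0.86 for Cdkn1a, -0.93 for Cdkn1c and 1.25 for Cdkn2c. Cdkn1b was then -0.69 in mKO2low over mKO2high and 0.53 in mAG+ over mKO2high, and mKO2neg over mKO2low was -0.19 for Cdkn1c and 2.46 for Cdkn2c.

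Values thinned to 5000 counts per cell come from a single random draw and rest on few counts. In mAG+ over mKO2neg they were -0.35 for Cdkn1a (8 against 10 counts), -0.69 for Cdkn1c (10 against 16) and 0.63 for Cdkn2d (46 against 28). Cdkn1c was 0.38 in mKO2low over mKO2high and -0.011 in mKO2neg over mKO2low, and mAG+ over mKO2high was 0.47 for Cdkn1b, -0.31 for Cdkn1c and 0.27 for Cdkn2d. With the labels as deposited, Cdkn2d was 2.30 in mAG+ over mKO2neg, -2.54 in mKO2low over mKO2high and -2.63 in mAG+ over mKO2high, and Cdkn2c was -1.11 in mKO2neg over mKO2low and 0.052 in mAG+ over mKO2high, while 14 alternatives had no value because both gates were at or under the floor.

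Among shares of cells 38 of 80 alternative values left their interval and 42 did not. The 8 shares of all genes past 2-fold and the 24 list medians have no interval. Each share fell when the minimum was raised to 50 counts. For genes at least 2-fold lower in mKO2neg than in mKO2low cells it went from 16.7% to 9.98%. Without a minimum on counts, some medians moved and others did not. In mKO2neg over mKO2low the pocket protein median went from 1.00 to 0 and the cyclin median from 0.97 to 0.055. The regulator median in mAG+ over mKO2neg went from -0.02 to 0.25, while that of the proliferation genes stayed at 2.49. The ratios that set Cdkn2c in mKO2low or mKO2high (4 and 3 counts) and Cdkn1b outside mAG+ (8 to 22 counts) against another gate have the fewest counts behind them.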
